A study of Mus musculus with 12 samples.

Results

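The 46 genes described here carry out or control the making, storage and release of fat in the liver. They were chosen by symbol, from fatty acid synthesis through elongation, desaturation, triglyceride assembly, droplet coating and lipolysis to fatty acid uptake. The rule itself uses no measured value, but the choice was made with earlier results of these data known. All 46 were found among the 54232 gene IDs of the count table, and 45 had enough reads to be tested. Whole liver mRNA was sequenced from male C57BL6/J mice of an intragastric feeding model of alcohol-associated steatohepatitis (ASH), with 1 library per mouse and an age label of 8 weeks. The 5 pair-fed (PF) controls received the isocaloric high-fat liquid diet without alcohol. The 7 alcohol-fed (AF) mice received that diet with alcohol, raised to 27 g/kg/day in the course of 8 weeks, and binges of 5 g/kg each week. The regimen also included a solid diet rich in fat and cholesterol, and the liquid diet of the PF mice was itself high in fat. AF livers were taken after the last binge, at a single time point.

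The liver makes fatty acids from acetyl-CoA, which ATP citrate lyase releases from citrate. Acetyl-CoA carboxylase turns it into malonyl-CoA, and fatty acid synthase builds palmitate from that. Elongases and desaturases lengthen and unsaturate the product, and acyltransferases join fatty acids to glycerol to give triglyceride, which is stored in droplets under a coat of perilipins and CIDE proteins until lipases release it. Sterol regulatory element-binding protein (the product of Srebf1) and the carbohydrate response element-binding protein ChREBP (the product of Mlxipl) switch on many of the genes of synthesis. Accumulation of triglyceride in hepatocytes is an early feature of alcohol-associated liver disease.

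Between 24129900 and 30578639 reads per library were counted on genes, and values are given as CPM, counts scaled to a common library size with edgeR's TMM factors. These factors lay between 0.832 and 0.901 in PF and between 0.880 and 1.36 in AF livers, with AF6 and AF7 the lowest of the AF livers. Of 8 hepatocyte markers listed, 7 were found, and their summed level was 99791 to 141203 CPM in PF and 54173 to 104492 CPM in AF livers. In this group 2 of 7 were lower and 0 were higher by edgeR's test. Higher in AF were 4 of 5 Kupffer cell markers, 6 of 8 of macrophages and monocytes (summed 419 to 827 CPM in PF, 808 to 2952 CPM in AF), 6 of 7 of stellate cells, 4 of 5 of bile ducts, 1 of 5 of sinusoidal endothelium and 0 of 5 of neutrophils. The 5 adipocyte markers were too low to test. Lep and Plin1 were at 0 in every PF liver, and the 5 genes summed to 6.74 CPM in AF1 and to at most 0.281 CPM in any other library. In whole tissue, fewer cells of a type and less RNA per cell cannot be told apart.

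All 8 genes of fatty acid synthesis were lower in AF livers, and 5 of 10 droplet coat genes and Cd36 were higher. By edgeR's quasi-likelihood test with Benjamini-Hochberg adjustment over all 14168 genes tested and a threshold of 0.05, 22 members were lower, 8 were higher and 15 did not pass. Of all genes tested, 17.8% were lower and 22.0% higher. The median log2 fold change (AF minus PF) was -0.57 over the members and 0.039 over all genes. Every AF liver lay below every PF liver for 16 members (9.49% of all genes) and above every PF liver for 7 (8.20% of all genes). Fatty acid synthesis had 0 higher and 8 lower of 8, and its median was -2.44. Elongation had 2 higher and 4 lower of 6 (median -0.84), desaturation 0 higher and 3 lower of 4 (median -1.17), and the regulators 0 higher and 3 lower of 3 (median -1.34). For triglyceride assembly, 0 were higher and 3 lower of 7 (median -0.37), and for lipolysis 0 were higher and 1 lower of 6 (median -0.01). The droplet coat had 5 higher and 0 lower of 10 tested, with a median of 0.71, and Cd36, the member for uptake, was higher.

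**Figure D1:**
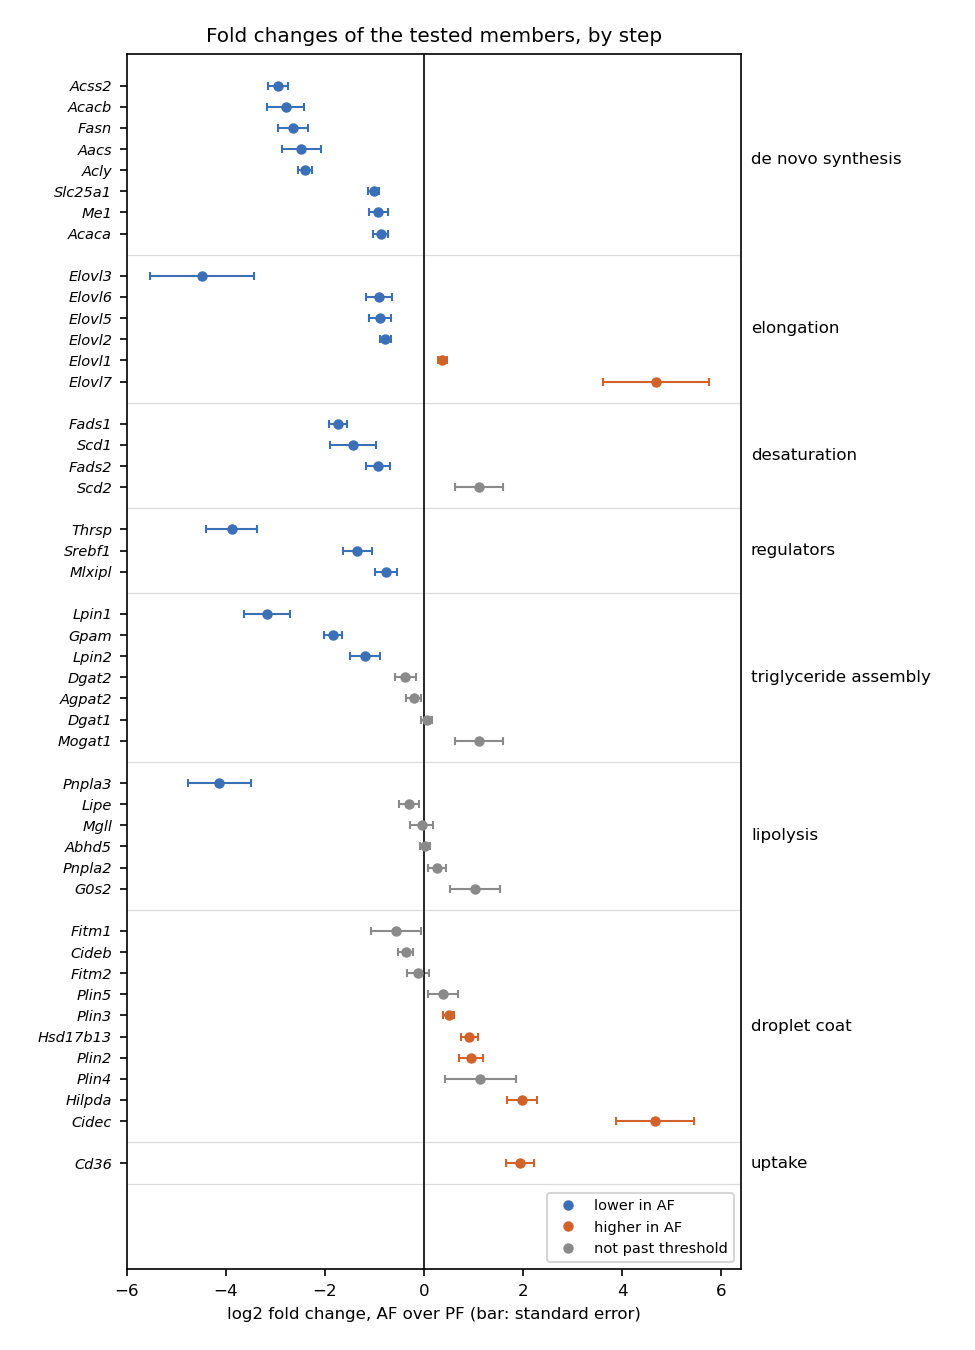
The log2 fold change of AF over PF livers (horizontal axis) for the 45 members tested, sorted within each step, with bars for the standard error and colours for the outcome of edgeR's test. All 8 genes of de novo synthesis lie left of 0, and the 5 droplet coat genes past the threshold lie right of it.

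The summed hepatocyte markers of AF1 to AF5 lay below the PF range and those of AF6 and AF7 inside it, and their part in these counts was not tested. Alb made up most of each sum and did not itself pass (log2 fold change -0.60, edgeR adjusted p 0.164). Over the 7 markers the log2 fold changes ran from -1.21 for Apoa1 to -0.23 for Hnf4a (edgeR adjusted p 0.00117 and 0.401). With the libraries scaled to the geometric mean of the 7 hepatocyte markers, an alternative chosen after seeing the data, the median of all genes shifted to 0.87. Against that scale 11 members were lower, all of them among the 22, and 20 were higher, where 2.58% of all genes were lower and 73.1% higher. The 11 were Acly, Acss2, Aacs, Acacb, Fasn, Elovl3, Fads1, Thrsp, Gpam, Lpin1 and Pnpla3. The 20 were the 8 higher members and 12 that had not passed: Scd2, Agpat2, Dgat1, Mogat1, Pnpla2, Abhd5, G0s2, Mgll, Plin4, Plin5, Cideb and Fitm2.

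For the start sites of members that moved together, RefSeq promoter windows (GRCm38.p6, 250 bases before to 50 after each start) were read for 39 of the 46 members. Cidea, Dgat1, Dgat2, Elovl3, Fads1, Scd1 and Scd2 had no entry. Each window was searched on both strands for the NF-Y box (CCAAT), the E-box (CACGTG), the SRE-like sequence (TCACNCCAC), the GC box (GGGCGG) and the TATA box (TATAAA). NF-Y is a general factor that often sits beside sterol regulatory element-binding protein, and E-boxes are bound by the USF and ChREBP families. The NF-Y box occurred in 20 of 39 members (13 of 19 lower, 4 of 8 higher, 3 of 12 that did not pass), against 41.1% of all 27025 genes in the table. As several members have more than 1 window, this corresponds to 21 of 53 windows (39.6%), against 37.4% of all 32851 windows. The E-box occurred in 7 of 39 members (4 of 19 lower, 1 of 8 higher, 2 of 12 that did not pass), against 8.09% of all genes, and the SRE-like sequence in 1 of 39, the lower member Mlxipl (1.44% of all genes). The GC box occurred in 26 of 39 (11 of 19 lower, 6 of 8 higher, 9 of 12 that did not pass), against 38.2% of all genes. The TATA box occurred in 2 of 39, the lower member Acacb and Cideb, which did not pass (15.7% of all genes). By windows, the members held the E-box in 13.2% (7.15% of all windows), the SRE-like sequence in 1.89% (1.24%), the GC box in 60.4% (35.7%) and the TATA box in 3.77% (13.6%). These are matches of letters and not measured sites. The 250 bases before the start are shown 5′ to 3′ for 5 of the lower members with an NF-Y box and large changes, from 4 steps, and for the higher member Plin2. Capitals mark an NF-Y box on either strand, read as CCAAT or ATTGG, and in Plin2 also the opening CACG of an E-box that runs past the printed end. The windows are Fasn chr11:120824548-120824797 (minus strand), Thrsp chr7:97417551-97417800 (minus), Acss2 chr2:155517793-155518042 (plus), Gpam chr19:55127239-55127488 (minus), Pnpla3 chr15:84167566-84167815 (plus) and Plin2 chr4:86670060-86670309 (minus).
Fasn: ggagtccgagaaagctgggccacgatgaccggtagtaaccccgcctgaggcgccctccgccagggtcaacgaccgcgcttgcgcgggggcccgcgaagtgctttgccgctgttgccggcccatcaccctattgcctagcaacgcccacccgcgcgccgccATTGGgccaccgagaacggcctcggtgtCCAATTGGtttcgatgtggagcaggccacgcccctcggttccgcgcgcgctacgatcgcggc
Thrsp: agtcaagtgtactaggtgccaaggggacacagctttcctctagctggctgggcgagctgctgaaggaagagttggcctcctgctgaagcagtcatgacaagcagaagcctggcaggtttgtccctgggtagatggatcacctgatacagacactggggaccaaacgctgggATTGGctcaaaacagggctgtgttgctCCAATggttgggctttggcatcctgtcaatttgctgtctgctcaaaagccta
Acss2: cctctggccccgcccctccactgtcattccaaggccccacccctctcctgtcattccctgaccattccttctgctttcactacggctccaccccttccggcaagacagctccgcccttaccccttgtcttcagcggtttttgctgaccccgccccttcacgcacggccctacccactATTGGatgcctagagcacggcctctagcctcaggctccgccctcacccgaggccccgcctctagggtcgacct
Gpam: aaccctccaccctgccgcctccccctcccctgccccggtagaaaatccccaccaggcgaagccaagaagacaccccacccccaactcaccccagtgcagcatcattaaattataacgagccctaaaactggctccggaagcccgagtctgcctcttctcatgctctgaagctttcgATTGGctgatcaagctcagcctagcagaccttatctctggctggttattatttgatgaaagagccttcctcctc
Pnpla3: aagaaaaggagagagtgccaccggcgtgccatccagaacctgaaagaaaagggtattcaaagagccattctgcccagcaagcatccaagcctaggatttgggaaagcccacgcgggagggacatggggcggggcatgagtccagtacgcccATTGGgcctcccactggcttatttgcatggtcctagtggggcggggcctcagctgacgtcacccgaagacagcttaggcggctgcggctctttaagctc
Plin2: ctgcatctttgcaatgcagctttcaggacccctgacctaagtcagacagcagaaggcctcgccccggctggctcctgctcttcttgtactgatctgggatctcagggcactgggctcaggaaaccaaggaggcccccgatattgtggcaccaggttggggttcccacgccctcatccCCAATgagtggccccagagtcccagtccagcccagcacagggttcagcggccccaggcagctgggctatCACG
Counted in bases from the start, the boxes begin at -90, -62 and -59 in Fasn (the last pair overlap each other), at -79 and -52 in Thrsp, at -73 in Acss2, at -74 in Gpam and at -99 in Pnpla3. In Plin2, which was higher in AF livers, the NF-Y box begins at -73 and the E-box at -4.

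All 8 genes of de novo synthesis fell in AF livers, and none of the AF libraries reached the lowest PF library for any of them. Together they summed to 1705 to 2613 CPM in PF and 422 to 652 CPM in AF livers. Acly (ENSMUSG00000020917, chr11:100476353-100528000 in GENCODE M21 on GRCm38, which is mm10, minus strand), which makes cytosolic acetyl-CoA from citrate, had the highest level per exon length of the 8 in PF livers, while in AF livers Slc25a1 (40.5 RPKM) and Me1 (26.1 RPKM) stood above it. Per kilobase of exon it stood at 92.6 ± 18.9 RPKM (SD, n = 5) in PF and 17.5 ± 2.37 RPKM (SD, n = 7) in AF livers. Acly measured 649, 412, 522, 422 and 439 CPM in PF1 to PF5, and its lowest, median and highest AF livers had 72.4, 94.5 and 108 CPM. The AF livers lay close together and far under the PF livers, a 5.30-fold difference (log2 fold change -2.40, SE 0.14, edgeR adjusted p 1.72e-07).

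Acss2 (ENSMUSG00000027605, chr2:155517948-155585724, plus strand), which activates acetate, the end product of alcohol oxidation, to acetyl-CoA, had the largest fall of the 8 in the main fit. With the replicate number as a block, Acacb fell further, with log2 fold changes of -3.51 for Acacb and -3.15 for Acss2. Acss2 stood at 459, 325, 471, 282 and 368 CPM in PF1 to PF5 and at 31.7, 51.2 and 67.1 CPM in the lowest, median and highest AF livers. It was 7.69-fold lower in AF (log2 fold change -2.94, SE 0.21, edgeR adjusted p 1.06e-06). Exons of Acss2 overlap the opposite-strand gene Gss, which had 32190 counts, and as the strand setting of the counting is not given in the sources used here, the split of reads between them is uncertain. Acacb (ENSMUSG00000042010, chr5:114146535-114250761, plus strand) encodes the mitochondrial acetyl-CoA carboxylase, whose malonyl-CoA restrains fatty acid oxidation. Acacb had 105, 86.9, 118, 75.4 and 84.8 CPM in the PF livers, and 6.44, 10.2 and 29.0 CPM in the lowest, median and highest AF livers. AF6 and AF7, at 29.0 and 24.5 CPM, were the AF livers nearest to PF (log2 fold change -2.79, SE 0.38, edgeR adjusted p 0.000179).

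Fasn (ENSMUSG00000025153, chr11:120805846-120824547, minus strand), the fatty acid synthase, measured 723, 294, 679, 393 and 269 CPM in PF1 to PF5. Its AF livers ran from 46.4 CPM in AF6 over a median of 77.5 to 110.2 CPM in AF7. The PF livers spread widely, yet the lowest PF liver stood above the highest AF liver (log2 fold change -2.65, SE 0.31, edgeR adjusted p 6.33e-05). Aacs, which activates acetoacetate for lipid synthesis, fell by 2.47 on the log2 scale (adjusted p 0.000477). Slc25a1, the carrier that exports citrate from mitochondria, fell by 1.01 (adjusted p 3.94e-05). Me1, the malic enzyme that supplies NADPH, fell by 0.93 (adjusted p 0.00267), and Acaca, the cytosolic acetyl-CoA carboxylase, by 0.88 (adjusted p 0.000764). These last 3 were among the 11 members that did not stay lower on the scale of the hepatocyte markers.

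**Figure D2:**
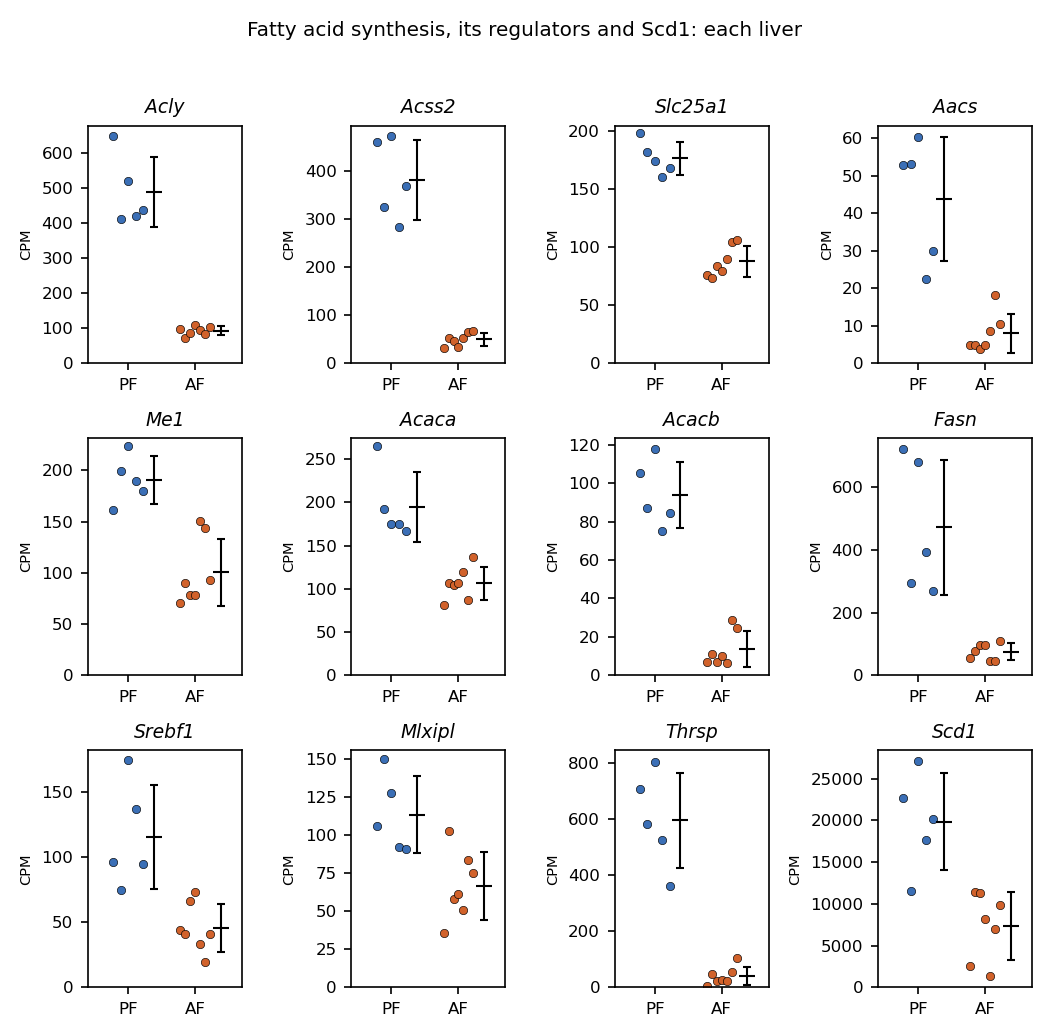
CPM of each liver (points; vertical axes start at 0 and differ between panels) for the 8 de novo synthesis genes, the 3 regulators and Scd1, in PF (n = 5, blue) and AF (n = 7, orange) mice, with the mean and SD beside each group. For all 12 genes except Mlxipl, every AF liver lies below every PF liver.

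The regulators of synthesis fell with the enzymes. Thrsp (Spot 14, ENSMUSG00000035686, chr7:97412938-97417730, minus strand), a small acidic protein that promotes lipogenesis, measured 705, 581, 804, 524 and 362 CPM in PF1 to PF5. In AF livers it ran from 6.53 CPM in AF1 over a median of 25.3 to 104 CPM in AF7. Thrsp had the highest level per exon length of the 3 regulators, 272 ± 77.5 RPKM (SD, n = 5) in PF, and was 14.7-fold lower in AF (log2 fold change -3.88, SE 0.52, edgeR adjusted p 0.000161).

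Srebf1 (ENSMUSG00000020538, chr11:60199089-60222581, minus strand), the sterol and insulin responsive factor, had 96.3, 74.5, 174, 137 and 94.8 CPM in the PF livers and 19.2, 41.4 and 73.1 CPM in the lowest, median and highest AF livers. The highest AF liver, AF4, lay just under the lowest PF liver, PF2 (log2 fold change -1.34, SE 0.29, edgeR adjusted p 0.00339). Exons of Srebf1 overlap the opposite-strand gene Rai1 (1225 counts). Mlxipl (ENSMUSG00000005373, chr5:135089890-135138382, plus strand), which encodes ChREBP, had 106, 150.2, 128, 92.6 and 91.0 CPM in the PF livers and 35.8, 61.3 and 103 CPM in the lowest, median and highest AF livers. Its groups overlapped through AF2, and it fell by 0.77 on the log2 scale (SE 0.22, edgeR adjusted p 0.0158). Neither Srebf1 nor Mlxipl stayed past the threshold on the scale of the hepatocyte markers.

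Elongation was the step in which members moved apart. Elovl2 (ENSMUSG00000021364, chr13:41182381-41220405, minus strand), an elongase of polyunsaturated fatty acids, had the highest level per exon length, 179 ± 11.5 RPKM (SD, n = 5) in PF and 105 ± 12.5 RPKM (SD, n = 7) in AF livers. Elovl2 measured 677, 665, 697, 762 and 759 CPM in PF1 to PF5 and 324, 414 and 476 CPM in the lowest, median and highest AF livers. The spread within each group was small and the groups did not overlap (log2 fold change -0.78, SE 0.11, edgeR adjusted p 0.000288). On the hepatocyte marker scale its sign turned, to 0.05.

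Elovl3 (ENSMUSG00000038754, chr19:46131897-46135694, plus strand), an elongase of saturated and monounsaturated fatty acids, measured 134, 86.0, 102, 141 and 321 CPM in PF1 to PF5. Its AF livers ran from 0.259 CPM in AF1 over a median of 1.41 to 33.9 CPM in AF6. A change of 22.3-fold separated the groups, and the highest AF liver was still below the lowest PF liver (log2 fold change -4.48, SE 1.05, edgeR adjusted p 0.00527). Without AF6, the log2 fold change was -5.93 (adjusted p 0.000370).

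Elovl7 (ENSMUSG00000021696, chr13:108214404-108285683, plus strand), another elongase of saturated fatty acids, was near the limit of detection in PF livers, at 0.492, 0.183, 0.542, 0.590 and 0.679 CPM. A count of 3 corresponds to 0.118 to 0.148 CPM in these libraries. In AF livers it ran from 1.12 CPM in AF2 over a median of 5.44 to 45.5 CPM in AF5, with AF1 at 25.0 CPM. All AF livers were above all PF livers, but AF2, AF6 and AF7 by little (log2 fold change 4.69, SE 1.07, edgeR adjusted p 0.00457). Limma-voom gave 3.69 with an adjusted p of 0.0979, and without AF5 edgeR gave 3.91 (adjusted p 0.00564). The bile duct markers summed to 1089.8 and 745 CPM in AF1 and AF5, the highest of all libraries. They summed to 172, 334 and 443 CPM in AF2 to AF4, and to 87.1 and 70.3 CPM in AF6 and AF7. In PF livers the sums ran from 49.5 to 244 CPM, a range that holds those of AF2, AF6 and AF7. Spp1, which did not pass (edgeR adjusted p 0.0635), made up most of each sum, at 1048 CPM in AF1 and 720 CPM in AF5. Krt19, Krt7, Epcam and Sox9, which passed, were also highest in AF1 and AF5, with Epcam at 22.6 and 13.5 CPM there. Against the PF range of each gene, AF2 lay above for Krt19 and Sox9, AF7 for Krt19 and Krt7, and AF6 for none. The part of these markers in the level of Elovl7 was not tested.

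Elovl6 (ENSMUSG00000041220, chr3:129532355-129638495, plus strand), which lengthens palmitate to stearate, measured 381, 219, 259, 215 and 171 CPM in the PF livers and 60.6, 131 and 213 CPM in the lowest, median and highest AF livers. The groups overlapped through AF7 (log2 fold change -0.91, SE 0.26, edgeR adjusted p 0.0144). Elovl5, which acts on polyunsaturated fatty acids, fell by 0.89 (adjusted p 0.00715), also with an overlap through AF7, at 449 CPM. With library totals in place of TMM factors, Elovl5 had a log2 fold change of -0.53 and did not pass (adjusted p 0.0681). Elovl1, an elongase of very long saturated chains, rose by 0.37 (adjusted p 0.00661) from 40.7 to 55.1 CPM in PF to 57.2 to 72.3 CPM in AF livers. Its exons overlap the opposite-strand gene Cdc20 (1433 counts).

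The main desaturase of the liver, Scd1, had the highest level per exon length of all members. Scd1 (ENSMUSG00000037071, chr19:44394455-44407879, minus strand) makes oleate and palmitoleate from saturated fatty acids. Per exon length it stood at 4058 ± 1183 RPKM (SD, n = 5) in PF and 1511 ± 828 RPKM (SD, n = 7) in AF livers. Scd1 measured 22691, 11591, 27113, 17661 and 20215 CPM in PF1 to PF5. In AF livers it ran from 1352 CPM in AF5 over a median of 8169.9 to 11479 CPM in AF2, and AF1 had 2597 CPM. The highest AF liver was just below PF2, the lowest PF liver (log2 fold change -1.43, SE 0.46, edgeR adjusted p 0.0265). The log2 fold change was -1.38 without PF1 (adjusted p 0.0508), -1.29 without PF3 (adjusted p 0.0632) and -1.23 without AF1 and AF6 together (adjusted p 0.0563), so the call was lost while the size changed little.

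Fads1 (ENSMUSG00000010663, chr19:10182888-10196877, plus strand), which adds a double bond to polyunsaturated fatty acids, measured 901, 868, 938, 794 and 781 CPM in PF1 to PF5 and 174, 245 and 382 CPM in the lowest, median and highest AF livers. The groups were well apart, by 3.34-fold (log2 fold change -1.74, SE 0.18, edgeR adjusted p 2.36e-05). Fads2 (ENSMUSG00000024665, chr19:10062765-10101746, minus strand), which acts before Fads1 in the same pathway, had 369.9, 376, 376, 373 and 319 CPM in the PF livers and 103, 193 and 332 CPM in the lowest, median and highest AF livers. AF1, the highest, lay inside the PF range (log2 fold change -0.92, SE 0.24, edgeR adjusted p 0.00957), and with library totals in place of TMM factors the adjusted p was 0.160. Scd2, a desaturase abundant in brain and fat, did not pass (log2 fold change 1.12, SE 0.48, adjusted p 0.0801). It had 7.59 to 28.6 CPM in PF and 7.67 to 83.2 CPM in AF livers, with AF6 the lowest. Without AF6 its log2 fold change was 1.30 with an adjusted p of 0.0129, and it also passed with DESeq2 (1.10, adjusted p 0.0382) and with library totals (1.57, adjusted p 0.0286). Scd1 and Scd2 are close relatives, and reads that match both could be assigned to either or dropped.

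In triglyceride assembly, Gpam and both lipins fell, and the remaining 4 genes, all acyltransferases, did not pass. Gpam (ENSMUSG00000024978, chr19:55067268-55127238, minus strand), the mitochondrial enzyme that attaches the opening fatty acid to glycerol phosphate, measured 237, 170.0, 420.0, 288 and 311 CPM in PF1 to PF5 and 61.8, 79.7 and 96.5 CPM in the lowest, median and highest AF livers. The AF livers were more alike than the PF livers, with SDs of 10.3 and 92.8 CPM, or 0.19 and 0.48 in log2 CPM (log2 fold change -1.85, SE 0.18, edgeR adjusted p 1.73e-05). Lpin1 (ENSMUSG00000020593, chr12:16535669-16610966, minus strand) encodes a phosphatidate phosphatase that yields diacylglycerol and also acts as a coactivator in the fasted liver. Lpin1 had 297, 643, 69.3, 301 and 352 CPM in the PF livers and 17.7, 35.4 and 75.2 CPM in the lowest, median and highest AF livers. Only AF6 reached above the lowest PF liver, PF3 (log2 fold change -3.17, SE 0.47, edgeR adjusted p 0.000327).

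Lpin2 (ENSMUSG00000024052, chr17:71182560-71249817, plus strand), a relative with the same activity, had 353, 555, 213, 498 and 577 CPM in PF1 to PF5 and 113, 162 and 362 CPM in the lowest, median and highest AF livers. PF3 was again the lowest PF liver, and AF1 and AF6 lay above it (log2 fold change -1.19, SE 0.31, edgeR adjusted p 0.00885). Dgat2 (ENSMUSG00000030747, chr7:99153658-99182719, minus strand), which joins the last fatty acid to newly made diacylglycerol, had the highest level per exon length of this step, 115 ± 13.4 RPKM (SD, n = 5) in PF and 88.6 ± 28.4 RPKM (SD, n = 7) in AF livers. Its PF livers had 358, 391, 389.7, 339.9 and 291 CPM and its lowest, median and highest AF livers 162, 255 and 393 CPM, which overlap (log2 fold change -0.37, SE 0.20, edgeR adjusted p 0.156). The other members of the step also did not pass. They were Dgat1, which also catalyses the last step (log2 fold change 0.06, adjusted p 0.713), Agpat2, which attaches the next fatty acid to lysophosphatidate (-0.21, adjusted p 0.306), and Mogat1, which acylates monoacylglycerol (1.12, adjusted p 0.0823, at 0.394 to 1.08 CPM in PF and 0.313 to 2.99 CPM in AF livers). Mogat1 passed without AF4 (1.30, adjusted p 0.0259) and with library totals (1.38, adjusted p 0.0191). Exons of Agpat2 overlap the opposite-strand gene Egfl7 (3267 counts).

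Of the lipolysis genes, Pnpla3 alone passed the threshold, and the lipases that start and end triglyceride breakdown did not. Pnpla3 (ENSMUSG00000041653, chr15:84167837-84187236, plus strand), a droplet-bound lipase relative and a target of sterol regulatory element-binding protein, measured 2.21, 0.915, 10.96, 1.38 and 3.12 CPM in PF1 to PF5. Its lowest, median and highest AF livers had 0.0372, 0.141 and 0.375 CPM. It summed to 432 counts over the PF and 47 over the AF libraries, so single AF values rest on few reads. The groups did not overlap, and the difference was 17.5-fold (log2 fold change -4.13, SE 0.63, edgeR adjusted p 0.000414). Without PF3, the highest PF liver, it was -3.17 (adjusted p 0.000698).

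Mgll (ENSMUSG00000033174, chr6:88724412-88828360, plus strand), the monoacylglycerol lipase, had the highest level per exon length of the lipolysis genes in PF livers, 16.1 ± 2.92 RPKM (SD, n = 5). In AF livers it stood at 15.6 ± 5.69 RPKM (SD, n = 7), below G0s2 at 21.3 RPKM. Its values of 70.4, 103, 85.2, 86.3 and 64.8 CPM in PF1 to PF5 lay inside the AF range of 48.6 to 116 CPM (log2 fold change -0.04, SE 0.23, edgeR adjusted p 0.893), and its exons overlap the opposite-strand gene Gm26588 (1068 counts). Pnpla2, the adipose triglyceride lipase, had a log2 fold change of 0.26 (adjusted p 0.276) and its coactivator Abhd5 of 0.03 (adjusted p 0.859). G0s2, the inhibitor of Pnpla2, did not pass (1.02, adjusted p 0.120), at 1.77 to 19.8 CPM in PF and 11.3 to 40.3 CPM in AF livers. It passed with limma-voom (1.41, adjusted p 0.0463), with library totals (1.35, adjusted p 0.0306) and without PF2 (1.52, adjusted p 0.0367). Lipe, the hormone-sensitive lipase, had a log2 fold change of -0.30 (adjusted p 0.225). A missed threshold does not show that these genes were equal in both groups.

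Of the 10 droplet coat genes tested, 5 rose and 0 fell, and Cidec had the largest change. Cidec (ENSMUSG00000030278, chr6:113424634-113435760, minus strand), also known as fat-specific protein and known to fuse small droplets into large ones, measured 0.246, 0.778, 0.500, 0.590 and 0.317 CPM in PF1 to PF5. In AF livers it ran from 1.62 CPM in AF2 over a median of 6.61 to 33.8 CPM in AF6, with AF1 at 24.1 CPM. Every AF liver was above every PF liver, on average by 25.4-fold (log2 fold change 4.66, SE 0.79, edgeR adjusted p 0.000800). Without AF1 and AF6 it was 3.60 (adjusted p 0.000384). Cidec is also an adipocyte gene. The adipocyte markers summed to 6.74 CPM in AF1 and to 0.149 CPM in AF6, and Cidec was 24.1 and 33.8 CPM there. Their part in the level of Cidec was not tested.

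Hilpda (ENSMUSG00000043421, chr6:29272488-29275446, plus strand), a hypoxia-inducible inhibitor of lipolysis on droplets, had 1.53, 1.69, 1.88, 1.85 and 2.08 CPM in PF1 to PF5 and 4.57, 5.76 and 14.6 CPM in the lowest, median and highest AF livers. PF livers were nearly alike, and the difference was 3.93-fold (log2 fold change 1.98, SE 0.30, edgeR adjusted p 0.000381). Plin2 (ENSMUSG00000028494, chr4:86648386-86670060, minus strand), the main perilipin of liver droplets, had 265, 339.9, 309, 265 and 279 CPM in the PF livers and 369, 493 and 1034 CPM in the lowest, median and highest AF livers. The groups did not overlap, AF6 stood highest and AF1 next at 693 CPM (log2 fold change 0.95, SE 0.24, edgeR adjusted p 0.00713).

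Hsd17b13 (ENSMUSG00000034528, chr5:103955440-103977410, minus strand), a hepatocyte droplet protein of the hydroxysteroid dehydrogenase family, had the highest level per exon length of the coat genes, 212 ± 27.7 RPKM (SD, n = 5) in PF and 399.8 ± 82.9 RPKM (SD, n = 7) in AF livers. It measured 401, 551, 409, 460.0 and 462 CPM in PF1 to PF5 and 566, 916 and 1079.5 CPM in the lowest, median and highest AF livers. AF2 lay just above PF2, and the other AF livers were clear of the PF range (log2 fold change 0.92, SE 0.17, edgeR adjusted p 0.00128). Plin3, a perilipin found in most cells, rose by 0.50 (adjusted p 0.00348), with 1 AF liver inside the PF range.

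The remaining coat genes did not pass. Plin4 and Plin5, the perilipins of tiny droplets and of droplets beside mitochondria, had log2 fold changes of 1.14 (adjusted p 0.222) and 0.38 (adjusted p 0.318). For both genes AF6 stood apart, at 44.6 CPM for Plin4 and 34.7 CPM for Plin5, and without it Plin4 had a log2 fold change of 0.15 and Plin5 of 0.050. Plin4 exons overlap the opposite-strand gene Hdgfl2 (3565 counts). Cideb, the CIDE protein of healthy liver that loads lipid onto lipoproteins, had a log2 fold change of -0.37 (SE 0.15, edgeR adjusted p 0.0556), with an exon overlap with the opposite-strand gene Nop9 (5874 counts). Its adjusted p was 0.0319 with DESeq2, 0.0488 with RLE scaling, 0.0259 without AF6 and 0.0318 without AF7, lower in each. On the hepatocyte marker scale Cideb passed in the opposite direction, at 0.42 (adjusted p 0.0259). Fitm1 and Fitm2, which help droplets bud from the endoplasmic reticulum, had log2 fold changes of -0.57 (adjusted p 0.385) and -0.11 (adjusted p 0.709). Fitm1 lay between 6.84 and 9.36 CPM in PF livers, while AF6 and AF7 were above that range, at 13.4 and 11.8 CPM, and the other 5 AF livers below it. Without AF6 and AF7 together, an alternative added after seeing the data, Fitm1 had a log2 fold change of -1.52 (adjusted p 0.00302) and Fitm2 of -0.43 (adjusted p 0.0403). For Fitm1 that fit holds only AF livers below the PF range, so its result restates the values above. On the hepatocyte marker scale Fitm2 passed as higher, at 0.62 (adjusted p 0.00824), and Fitm1 did not pass. Cidea was not tested, with 5 counts over the PF and 8 over the AF libraries.

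**Figure D3:**
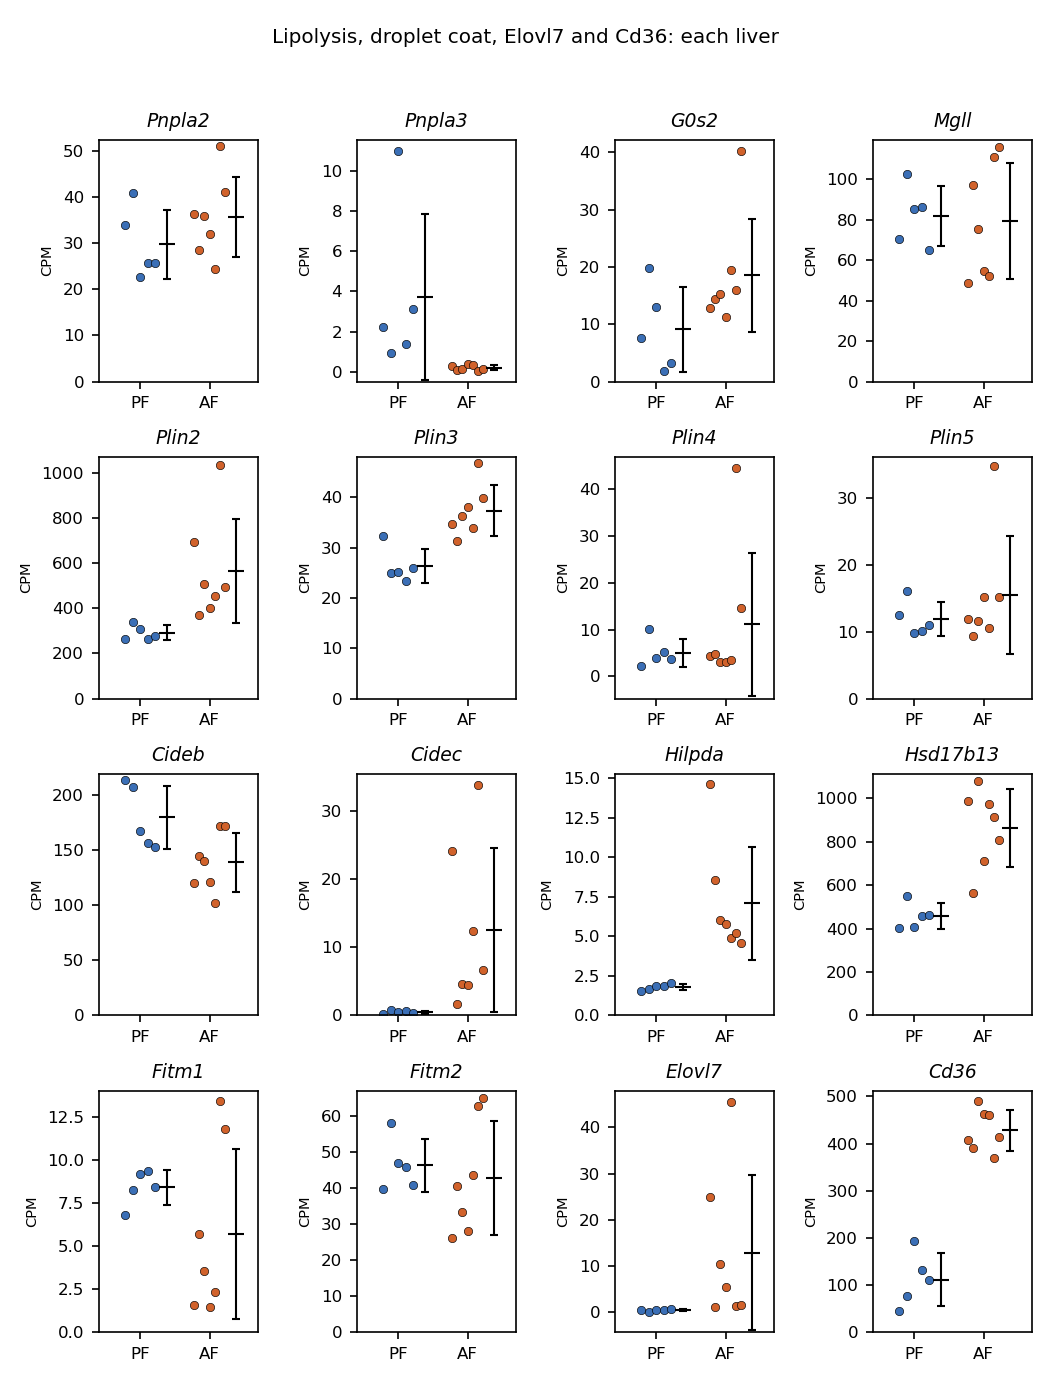
CPM of each liver (points; vertical axes differ between panels) for 16 members of lipolysis, the droplet coat, elongation and uptake in PF (n = 5, blue) and AF (n = 7, orange) mice, with the mean and SD beside each group. Cidec, Plin2, Hilpda, Hsd17b13, Elovl7 and Cd36 have every AF liver above every PF liver, and 1 AF liver lies far above the others for Plin4 and Plin5.

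Cd36 (ENSMUSG00000002944, chr5:17781690-17888801, minus strand), the fatty acid translocase of the cell surface, is the member for uptake. It measured 45.7, 76.9, 194, 133 and 111 CPM in PF1 to PF5 and 369, 415 and 490.1 CPM in the lowest, median and highest AF livers. The AF livers formed a narrow band above a wide PF range, with SDs of 43.9 and 56.4 CPM around means of 428 and 112 CPM. The difference was 3.82-fold (log2 fold change 1.93, SE 0.28, edgeR adjusted p 0.000291). Macrophages also carry Cd36. The macrophage and monocyte markers summed to 419 to 827 CPM in PF livers. In AF6, AF5, AF7, AF4, AF2, AF1 and AF3, in rising order of their sum, the markers summed to 808, 1003, 1056, 1869, 1884, 2112 and 2952 CPM. Cd36 in the same order of livers was 369, 462, 415, 463, 391, 408 and 490.1 CPM. AF6 and AF3 were lowest and highest for both, and the livers between them did not follow the same order. Lyz2 made up most of each sum, and other markers ordered the livers otherwise. AF1 was the lowest AF liver for Csf1r and the highest for Trem2 and Gpnmb. The part of macrophages in the level of Cd36 was not tested.

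Ratios between members within a liver depend little on how libraries are scaled, apart from the pseudocount of 0.1 that was added to each CPM value. They use the same values as the fold changes given above and are not independent of them. For 9 ratios, the difference in mean log2 ratio of CPM was tested with an exact two-sided permutation test over all 792 assignments of the labels and adjusted over the 9. The log2 ratio of Acaca to Acacb was 2.14 higher in AF livers (adjusted p 0.00758, exact test), and the groups did not overlap. The log2 ratio of Lpin2 to Lpin1 was 1.81 higher (adjusted p 0.00758, exact test), with 1 AF liver inside the PF range. Cidec to Cideb was 4.27 higher, with a raw p of 0.00126, the smallest that these exact permutations can give, and an adjusted p of 0.00758. As Cidec is low in PF livers, this difference fell to 3.07 with a pseudocount of 1 (adjusted p 0.0142, exact test). Scd2 to Scd1 was 2.62 higher (adjusted p 0.0250, exact test), although in 1 AF liver the ratio lay inside the PF range. Plin2 to Plin5 was 0.61 higher (adjusted p 0.0250, exact test), and without PF1 or without PF2 the difference was still 0.55, with an adjusted p of 0.0591 in both exact tests.

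The other ratios did not pass these exact permutation tests. G0s2 to Pnpla2 was 1.11 higher in AF (adjusted p 0.0893, exact test), with a wide PF spread (SD 1.26). It was 1.44 without PF3 (adjusted p 0.0318, exact test) and 0.69 without PF4 (0.242). Dgat2 to Dgat1 was -0.49 (adjusted p 0.0530, exact test), and it passed without AF4 (0.0195) and without AF6 (0.0455). Srebf1 to Mlxipl was -0.58 (adjusted p 0.298, exact test). Elovl5 to Elovl6, enzymes that fell by like amounts, differed by 0.02 (adjusted p 0.956, exact test), and its sign changed with single livers left out.

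**Figure D4:**
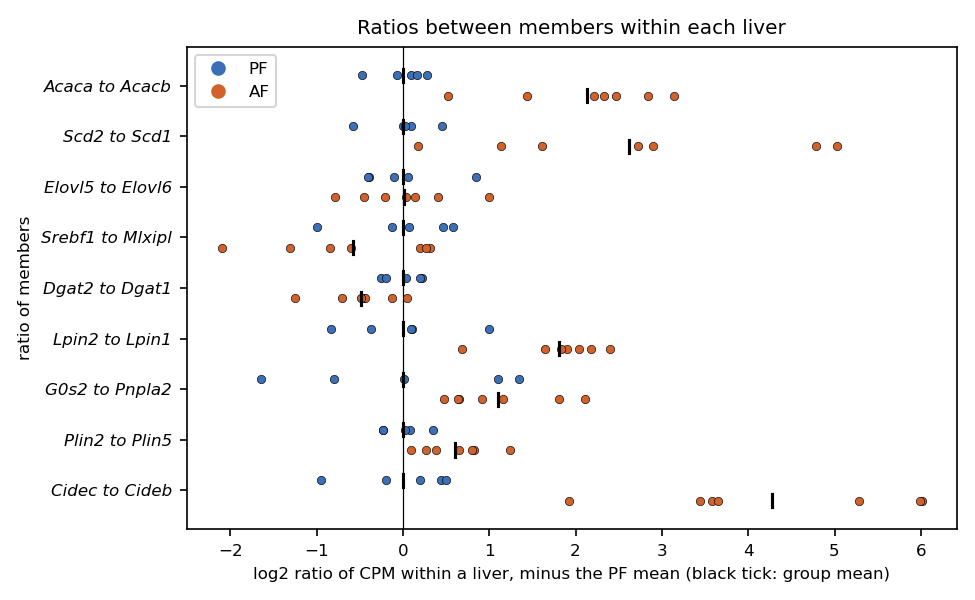
The log2 ratio of CPM between pairs of members in each liver, minus the mean of the PF livers (horizontal axis), for PF (n = 5, blue) and AF (n = 7, orange), with a black tick at each group mean. The AF livers lie to the right of all PF livers for Acaca to Acacb and Cidec to Cideb, and the groups overlap for Elovl5 to Elovl6.

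AF livers did not move alike at every step. Taken as the median over a step of each gene's log2 difference from its PF mean, de novo synthesis ran from -2.65 in AF1 to -1.42 in AF6, against -0.17 to 0.33 in the PF livers. The droplet coat ran from 0.15 in AF5 to 1.25 in AF6, and AF7 followed at 0.69, against -0.19 to 0.25 in the PF livers. AF1, AF2, AF3 and AF5 lay inside that PF range. The regulators ran from -2.51 in AF6 to -0.86 in AF4, so AF6 held the lowest regulator median and the highest synthesis median of the AF livers. With 3 regulators, the AF6 median is the value of Srebf1 alone (19.2 CPM). Only AF2 stood above AF6 for Mlxipl (83.7 CPM in AF6) and only AF7 for Thrsp (54.7 CPM in AF6). Within synthesis, AF6 was the highest AF liver for Aacs and Acacb and the lowest for Fasn. Only AF2 stood below AF6 for Acly and only AF1 for Acaca. AF7 was the highest AF liver for 10 of the 22 lower members, and AF1 the lowest for 7 of them. The hepatocyte markers summed to 104492 CPM in AF7, 104484 in AF6, 57262 in AF1 and 54173 in AF4. Their part in the order of the livers was not tested. Among the 8 higher members, AF2 was the lowest AF liver for 5 and AF6 the highest for 3. These counts of lowest and highest livers have no share over all genes beside them. They are therefore not shown to be particular to the members. The SD of log2 CPM was larger in AF than in PF for 31 of 45 members (68.9%), against 71.8% of all genes tested.

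**Figure D5:**
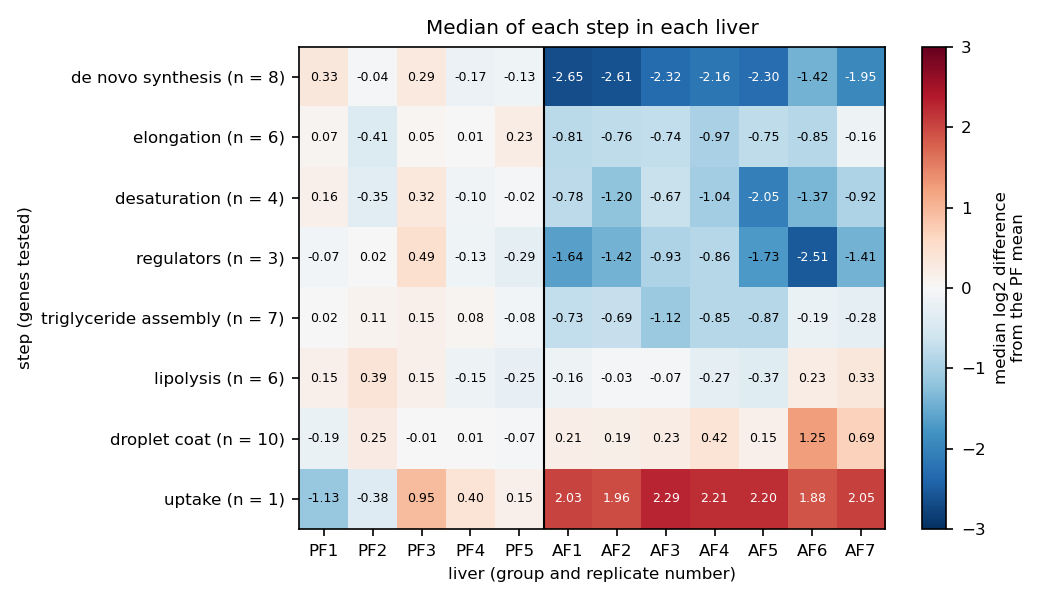
Median log2 difference from the PF mean over the tested members of each step (vertical axis, with the number of genes), in each liver (horizontal axis, PF1 to PF5 and AF1 to AF7), as colour and number. De novo synthesis is at -1.42 or lower in all 7 AF livers, and the droplet coat is highest in AF6 at 1.25.

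Other genes of the same pathways were listed by role, 79 in all, of which 72 were tested. Of these, 16 were higher, 22 lower and 34 did not pass, with a median log2 fold change of 0.01. The share of all genes tested was 22.0% higher and 17.8% lower. NADPH supply had 2 higher and 1 lower of 5, with Idh1 (isocitrate dehydrogenase of the cytosol) at -1.04 (edgeR adjusted p 0.000129) and Pgd of the pentose phosphate pathway at 0.81 (adjusted p 0.00305). The remaining synthesis and elongation cycle genes had 2 higher and 5 lower of 12, with the desaturase relative Fads3 at 2.53 (adjusted p 0.00191) and the dehydratase Hacd4 at 1.08 (adjusted p 0.00307). Of the acyl-CoA synthetases, 3 of 4 were lower and 0 higher, with Acsl3 at -1.09 (adjusted p 0.000627) and Acsl5 at -0.98 (adjusted p 6.43e-05).

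Among genes that regulate Srebf1, ChREBP and LXR activity, 2 were higher and 4 lower of 13. Insig1, which holds the SREBP complex in the endoplasmic reticulum and is itself a target of SREBP, was at -3.35 (edgeR adjusted p 2.77e-08), from 534 to 895 CPM in PF to 54.4 to 79.5 CPM in AF livers. Mid1ip1, a relative and partner of Thrsp, was at -1.07 (adjusted p 0.00572). Further glycerolipid assembly genes had 6 higher and 3 lower of 16, led by Gpat3 at 2.43 (adjusted p 0.000136) and Mogat2 at 1.99 (adjusted p 0.00446). Gpat3 catalyses the same step as Gpam from the endoplasmic reticulum and was higher where Gpam was lower.

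Of the other lipases, 1 was higher and 2 lower of 7. Lpl, the lipoprotein lipase, was at 3.18 (edgeR adjusted p 0.000667), from 23.1 to 71.4 CPM in PF to 99.1 to 801 CPM in AF livers, and macrophages and stellate cells, whose markers were higher in AF, also make it. Endothelial lipase, Lipg, was at -2.64 (adjusted p 3.49e-05). Other droplet proteins had 1 higher and 2 lower of 7, with the droplet hydrolase Ldah at -0.57 (adjusted p 0.00393) and Tm6sf2, which acts in lipoprotein lipidation, at 0.50 (adjusted p 0.00267). Fatty acid uptake and binding had 2 higher and 2 lower of 8, with the binding protein Fabp5 at -2.36 (adjusted p 0.00190) and the transporter Slc27a1 at 1.46 (adjusted p 0.00104). The part of cell types in these values was not tested.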

How the data were processed

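Whole liver RNA of 5 PF and 7 AF mice was extracted with TRIzol and enriched with oligo(dT), and the labels name a stranded TruSeq mRNA kit. Read quality was examined with FastQC 0.10.1, reads were aligned to mm10 with TopHat2 2.0.13 and counted with HTSeq 0.10.0, per the submitters' processing notes. The annotation release and the strand setting of the counting are not given in the sources used here. The table that the authors deposited holds unnormalized counts for each Ensembl gene, and 0 of its columns lacked a sample. Each library is a mouse of its own, so p-values rest on the spread between mice.

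From these counts, 54165 of 54232 IDs were named with GENCODE M21. Counts were filtered with filterByExpr by group, TMM-scaled and tested with edgeR 4.0.16 (R 4.3.3) as AF against PF without covariates. DESeq2 1.42.0, limma 3.58.1 with voom, other scalings, filters and depth, the replicate number as a block and each library left out in turn were alternatives. RPKM was CPM divided by the union exon length, and log ratios used a pseudocount of 0.1. The standard error was derived from the F statistic. The floor behind a count of 0 was set at 3 counts (95% confidence, counting error only). On simulated data with 200 of 13990 genes changed 4-fold, the edgeR step recovered 191 and made 8 false calls. Pairs of libraries within groups differed by at least 20.2 times the counting noise, so none was taken as a repeat. Same-numbered PF and AF libraries did not deviate together and were not paired.

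The members and lists were chosen with earlier results of these data known. All members are named. Values per liver are given for the member of each step with the highest level per length and for up to 3 with the largest change past the threshold, and up to 2 genes are named per list of other pathway genes by the same measure. Scd2 and other members near a threshold were given values after these had been seen.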

Additional observations from a re-analysis of the deposited data

Results flagged for a closer look

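A single liver stood apart from its group, by Dixon's test at the 95% level, in 10 of the 90 groups of values examined (45 members in PF and in AF). Chance gives about 1 in 20 such groups, or 4.5 of 90, if values are normally distributed and the groups independent. The values were CPM, the members share the same livers, and no share over all genes is given here. The count is therefore not shown to be particular to the members. No cause was tested.

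In PF livers, Acaca was 265 CPM in PF1, next to 193 CPM in the nearest liver. Elovl3 was 321 CPM in PF5, next to 141 CPM, and Fads2 was lowest in PF5 at 319 CPM, next to 369.9 CPM. Pnpla3 was 10.96 CPM in PF3, next to 3.12 CPM. In AF livers, AF6 held 3 of the values, Elovl3 at 33.9 CPM (nearest 11.6), Plin4 at 44.6 CPM (nearest 14.7) and Plin5 at 34.7 CPM (nearest 15.2). Hilpda was 14.6 CPM in AF1 (nearest 8.58), Abhd5 57.8 CPM in AF5 (nearest 49.5) and G0s2 40.3 CPM in AF7 (nearest 19.4).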

How the results depend on the processing

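All 22 lower and 8 higher calls were kept by RLE and upper-quartile scaling, DESeq2, both other filters, thinning and the replicate block. Limma-voom lost Elovl7 (adjusted p 0.0979). Leaving out PF1 or PF3, or AF1 and AF6 together (added after seeing the data), lost Scd1. Library totals without TMM shifted the median of all genes to 0.40 and gave 15 higher and 20 lower members (Fads2 and Elovl5 lost), with 6458 genes higher and 938 lower. Of all calls 87.3% were then higher, against 55.3% with TMM. Scaling to the hepatocyte markers, added after seeing the data, gave 20 higher and 11 lower members, with 10356 genes higher and 365 lower (96.6% higher). Single livers left out gave 8 to 9 higher and 21 to 23 lower members.

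The sign changed for members that had not passed, and for Elovl2. On the hepatocyte marker scale, where Agpat2, Mgll, Cideb and Fitm2 passed as higher, the log2 fold changes became 0.052 (Elovl2), 0.58 (Agpat2), 0.41 (Dgat2), 0.49 (Lipe), 0.67 (Mgll), 0.42 (Cideb) and 0.62 (Fitm2). With library totals they became 0.14 (Agpat2), 0.038 (Lipe), 0.26 (Mgll) and 0.19 (Fitm2), and with upper-quartile scaling 0.0087 (Mgll). Leaving out single livers gave -0.0071 to 0.13 for Dgat1, -0.040 to 0.077 for Abhd5, -0.16 to 0.050 for Mgll and -0.15 to 0.23 for the ratio of Elovl5 to Elovl6. Apart from the hepatocyte marker scale, 6 members that passed kept their direction but moved by over 1.5 times. Elovl3 moved to -6.98 with the replicate block, -6.50 with limma-voom, -5.93 without AF6, -5.80 on replicates 1 to 5 without the block and -5.67 without AF1 and AF6. With the block, Acacb moved to -3.51, Thrsp to -4.72, Pnpla3 to -3.43 and Cidec to 3.72, and without it Acacb to -3.50 and Thrsp to -4.58. Pnpla3 was -3.17 without PF3, Cidec 3.60 without AF1 and AF6, and Elovl7 3.69 with limma-voom and 3.91 without AF5. The causes of these changes were not tested.

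The replicate block, on replicates 1 to 5, gave 9 higher and 26 lower members (3342 and 2914 genes), and the same libraries without the block also gave 9 and 26 (3613 and 3090 genes; added after seeing the data). AF6 and AF7 are absent from both fits. With the block, Dgat1 was -0.014, Plin4 -0.28 and Plin5 -0.011, and without it Dgat1 was -0.020, Plin4 -0.42 and Plin5 -0.018. Members that passed in addition were, with the block, Scd2 at 1.53 (adjusted p 0.00102), Fitm1 at -1.67 (0.00335), Cideb at -0.51 (0.00669), Fitm2 at -0.44 (0.0212) and Mgll at -0.35 (0.0311). Without it they were Scd2 at 1.46 (0.00410), Fitm1 at -1.52 (0.00302), Cideb at -0.51 (0.00714), Fitm2 at -0.43 (0.0403) and Dgat2 at -0.52 (0.04999). The numbers do not mark a shared origin in the labels. Deviations of same-numbered libraries correlated by -0.076 to 0.11, and 1 of the 5 numbers correlated best with its own.

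Depth limits Pnpla3, Elovl7, Cidec, Mogat1 and Cidea, whose values in at least 1 group rest on few reads.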
